A study of Mus musculus with 6 samples.

Results

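The 9 genes described here are Ccr9, Cxcr4, Ccr7, S1pr1, Klf2, Cd44, Cd69, Itgae and Selplg, which guide lymphocytes through tissues or mark their activation. They were listed by name from 22380 protein-coding genes, at a time when earlier results of these data were known, and the rule itself uses no measured value. For each gene, the accessible regions (peaks) in the gene body and the 50 kb on either side were collected, and those within 1 kb of an annotated start of the gene were counted apart. The 9 windows held 66 of the 32527 peaks in the deposited list, or 0.203%. Ccr9 and Cxcr4 were set against the other 7 genes, because thymocytes at immature stages carry both receptors, whereas most of the others are known from mature or activated T cells.

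Chromatin accessibility was measured by ATAC-Seq, in which a transposase inserts sequencing adapters into open DNA, in Beko cells, a mouse pre-T leukemia line with constitutive Notch activity. There were 3 libraries from cells given DMSO and 3 from cells given the γ-secretase inhibitor (GSI) DAPT, all after 24 h, and both groups came from this single cell line. γ-Secretase cuts the Notch receptor free from the membrane, so its inhibition keeps the Notch intracellular domain from reaching its DNA-binding partner RBPJ. The sample labels give the inhibitor at 10 mg/ml. The methods and the figure legends of the study both give the same figure in μg/ml, so the unit on the labels is in doubt.

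The deposited file is 1 list of regions merged over all 6 libraries, with no count, height or signal for any library. GSI and DMSO therefore could not be compared, no replicate error could be given, and the depth behind each peak is unknown. Every value below describes where the merged list holds a peak, and no test was made. A listed peak does not say how strongly a site was open or in how many cells, and a missing peak does not show that a site was closed.

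Developing T cells follow chemokines with receptors of the G protein-coupled family. CXCR4 reads CXCL12 and CCR9 reads CCL25 inside the thymus, whereas CCR7 reads CCL19 and CCL21 on the way into lymph nodes. Mature cells leave the thymus along a gradient of sphingosine 1-phosphate through S1PR1, a receptor induced by the transcription factor KLF2 and removed from the surface by CD69. CD44 binds hyaluronan, the integrin αE chain encoded by Itgae pairs with β7 to bind E-cadherin, and PSGL-1, the product of Selplg, binds selectins once it has been glycosylated. Klf2 is the one gene of the 9 whose product is a nuclear protein rather than a surface protein.

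A peak lay within 1 kb of an own start at 7 of the 9 genes, against 46.9% of all coding genes (10506 of 22380). The 7 were Ccr9, Cxcr4, Ccr7, Klf2, Cd44, Cd69 and Selplg, and each of the 7 peaks covered an annotated start itself. S1pr1 and Itgae had none. The nearest peak to an S1pr1 start was 29417 bp away, and the nearest to the Itgae start was 5863 bp away. The same 7 genes were found with a limit of 500 bp or 5 kb, whereas 5 remained when only peaks of at least 500 bp were kept, since the peaks at Ccr9 and Selplg are narrower than that.

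All 9 windows held at least 4 peaks, as did 46.1% of coding genes. The limit of 4 was taken from the lowest of the 9 counts, so the count of 9 follows from it. Selplg had 13 peaks, Ccr9 had 10, Itgae had 8, Cxcr4, Ccr7 and Cd44 had 7 each, Klf2 had 6, and S1pr1 and Cd69 had 4 each. Over all coding genes the median was 3 peaks, with quartiles of 1 and 6. Because the gene bodies differ from 2.62 kb (Klf2) to 104 kb (Ccr9), the counts were also divided by window length. Selplg then stood highest with 11.5 peaks per 100 kb, above 99.2% of coding genes, followed by Cxcr4 with 6.72, Ccr7 with 6.31, Klf2 with 5.85, Itgae with 5.10 and Ccr9 with 4.91. S1pr1 with 3.82, Cd69 with 3.70 and Cd44 with 3.67 closed the order, still above the median of 2.38 over all coding genes. Coding genes with an own-start peak had a median of 3.86 peaks per 100 kb and those without one had 0.832. The 2 kinds of gene thus make different backgrounds. Cd69 and Cd44, which have an own-start peak, lay below the 3.86, and the others that have one lay above it. S1pr1 and Itgae, which have none, lay above the 0.832.

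**Figure D1:**
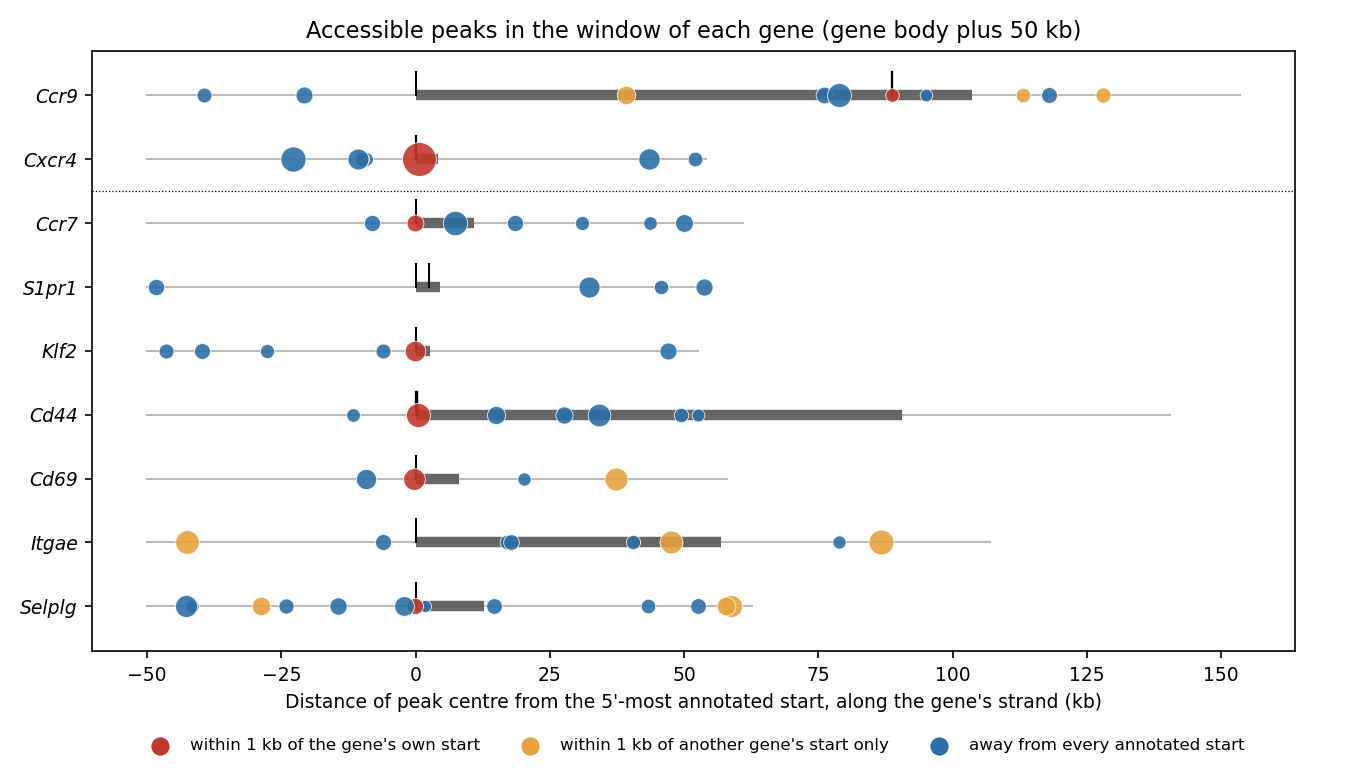
Peaks in the 9 windows, 1 row per gene, by the distance of the peak centre from the 5′-most annotated start in kb, with negative values upstream. Thick bars are gene bodies, ticks are annotated starts, circle area grows with peak width, red circles touch an own start, orange circles lie at a start of another gene only, blue circles lie away from every annotated start, and the dotted line divides Ccr9 and Cxcr4 from the other genes. The own-start peak of Ccr9 sits 88.79 kb inside the gene, and the S1pr1 row has no red circle.

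**Figure D2:**
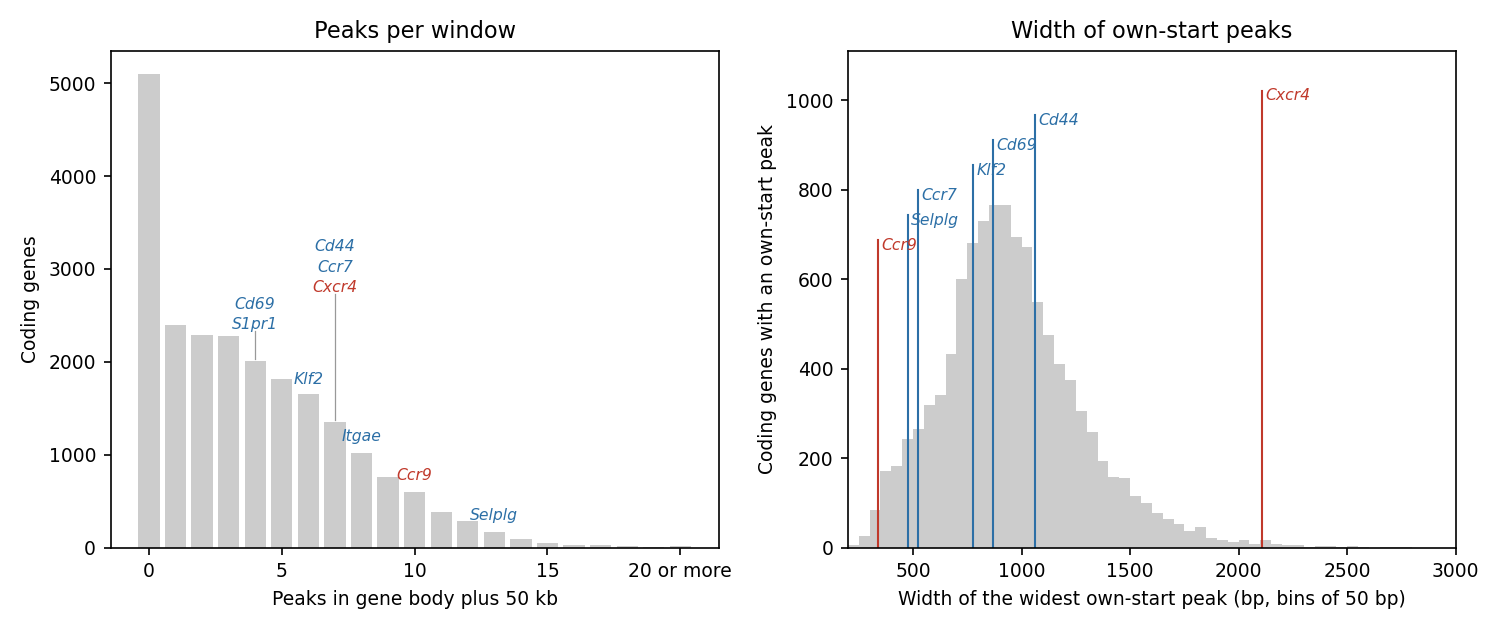
Left, the number of coding genes (y axis) by peaks in the gene body plus 50 kb (x axis), with the names of the 9 genes set over their counts. Right, the number of coding genes with an own-start peak by the width of the widest such peak in bp, with vertical lines at the 7 genes that have one; the heights of the lines carry no value. Red marks Ccr9 and Cxcr4 and blue the other genes; Ccr9 (338 bp) and Cxcr4 (2106 bp) lie at opposite ends of the widths.

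Of the 66 peaks, 7 lay at own starts, 22 upstream, 15 in gene bodies and 22 downstream. Among the 15 in gene bodies, 3 touched an exon of any transcript of the gene. A start of another gene lay within 1 kb of 10 peaks, and 49 peaks were away from every annotated start. For 41 peaks the nearest coding start was that of the gene itself, and the other 25 were nearer to a neighbour. Peak widths ran from 266 bp to 2106 bp, with a median of 483 bp against 551 bp in the whole list. The own-start peaks had a median of 778 bp, and the peaks upstream (478 bp), in gene bodies (513 bp) and downstream (456 bp) were narrower. The 49 peaks away from starts resembled such peaks of the list in width (451 against 465 bp) and in GC content (49.5% against 50.1%).

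Cxcr4, on the minus strand of chromosome 1 (mm9, chr1:130484776-130488870), had the widest own-start peak of the 7. It spanned 2106 bp (chr1:130487270-130489375), covered the annotated starts and reached into the gene, and was wider than the widest own-start peak of 99.4% of coding genes that have one. Only 88 peaks of the list exceeded 2 kb. Its GC content was 54.9% and its ratio of observed to expected CpG dinucleotides was 0.73. A run of 3 peaks followed upstream (350, 381 and 810 bp) inside 2037 bp, between 9.24 and 10.70 kb from the start. Runs of 3 adjacent peaks this tight occurred 14 times in the list, this one included. The limit for this count was the length of the run itself and was not planned beforehand. Farther upstream, at 22.91 kb, lay a peak of 1165 bp, and 2 more peaks (833 and 397 bp) lay downstream. For all 7 peaks of this window the nearest coding start was that of Cxcr4.

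Ccr9, on the plus strand of chromosome 9 (chr9:123587557-123691089), is annotated with 4 starts, 1 of which lies 88.8 kb before that of the main transcript, Ccr9-001. The own-start peak (chr9:123676174-123676511) was at the downstream starts, whereas the nearest peak to the upstream start was 20561 bp away. This own-start peak measured 338 bp, and 0.790% of coding genes with an own-start peak had a narrower one. Within the long intron before it, 2 peaks of 513 and 1052 bp lay 12390 and 9497 bp from the downstream starts, and the second was the widest of the window. The window also takes in neighbours. A peak of 631 bp, also centred in an intron of Ccr9, lay at the start of Lztfl1, a regulator of ciliary traffic. One of 424 bp lay at the start of Cxcr6, the receptor for CXCL16. Another, of 386 bp, lay by the start of Gm17021. The nearest coding start was that of Ccr9 for 5 of its 10 peaks. A shorter window drawn from the downstream starts, chosen after seeing the data, held 8 peaks. Its density was 6.97 per 100 kb, against 4.91 in the full window.

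Ccr7, on the minus strand of chromosome 11 (chr11:99005510-99016391), had an own-start peak of 525 bp (chr11:99016250-99016774), and 7.92% of coding genes with such a peak had a narrower one. The widest of its 7 peaks, 1096 bp (chr11:99008479-99009574), lay in an intron 7.36 kb downstream of the start. Another 4 peaks of 338 to 580 bp lay beyond the 3′ end and 1 of 483 bp lay 8.07 kb upstream. No other gene had a start with a peak in this window.

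S1pr1, on the minus strand of chromosome 3 (chr3:115413351-115417973), had 3 peaks downstream and 1 upstream and none in the gene. The gene is annotated with 2 starts 2.41 kb apart, and distances of centres are from the 5′-most one. The peak centres lay 32.23, 45.65 and 53.71 kb downstream of that start and 48.37 kb upstream of it. The nearest, 816 bp wide (chr3:115385335-115386150), was also the widest. S1pr1 had the nearest coding start to all 4, so the peaks lie in a stretch with no other coding gene start close by. Of the 11874 coding genes without an own-start peak, 56.5% were farther from their nearest peak than S1pr1 was, and 24.2% had 4 or more peaks in the window.

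Klf2, on the plus strand of chromosome 8 (chr8:74842932-74845555), had an own-start peak of 778 bp (chr8:74842505-74843282) with a GC content of 65.9%, the widest peak of its window. There were 4 peaks upstream, of 366 to 464 bp, at 5.98, 27.74, 39.72 and 46.44 kb. The nearest of these was also nearest to Klf2 among coding starts, and the other 3 were nearer to the starts of Gm10282 or Ap1m1. The 1 peak downstream, of 532 bp at 47.00 kb, lay in an intron of Eps15l1.

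Cd69, on the minus strand of chromosome 6 (chr6:129217342-129225387), had an own-start peak of 867 bp (chr6:129225176-129226042) and the lowest GC content of the 7 such peaks, 41.5%. A peak of 750 bp lay 9.29 kb upstream. Downstream lay a peak of 325 bp and one of 962 bp, and the latter, the widest of the window, was at the start of the long non-coding RNA gene 2310001H17Rik. Cd69 had the nearest coding start to all 4 peaks.

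Cd44, on the minus strand of chromosome 2 (chr2:102651298-102741822), had an own-start peak of 1062 bp (chr2:102740865-102741926), the widest of its window, and 5 further peaks of 304 to 942 bp in the gene body. Of these 5, 4 were centred in introns and 1, of 380 bp, on an annotated exon. The remaining peak, of 341 bp, lay 11.58 kb upstream, and no peak lay beyond the 3′ end within 50 kb. Cd44 was the only gene of the 9 with most of its peaks inside the gene, and it had the nearest coding start to all 7.

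Itgae, on the plus strand of chromosome 11 (chr11:72904085-72960948), had 8 peaks, but 3 of them lay at starts of other genes. These were the peaks at 1200014J11Rik (1029 bp), at Gsg2, a histone kinase gene nested inside Itgae (965 bp), and at the starts shared by Tax1bp3 and Tmem93 (1140 bp, the widest of the window). Itgae itself had the nearest coding start to 3 peaks only. One of 473 bp lay 6.10 kb upstream, and a pair of 400 and 450 bp lay 343 bp apart in introns, 17.01 and 17.78 kb from the start. Of the coding genes without an own-start peak, 85.1% were farther from their nearest peak than Itgae was.

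Selplg, on the minus strand of chromosome 5 (chr5:114267807-114280510), had the most peaks, also per length of window. Its own-start peak measured 476 bp (chr5:114280300-114280775), and 5.67% of coding genes with an own-start peak had a narrower one. A peak of 712 bp lay 2.20 kb upstream and one of 266 bp, the narrowest of the 66, lay 1.74 kb downstream in an intron. The nearest coding start was that of Selplg for 4 of its 13 peaks. A start of Sart3 or Iscu, genes of splicing and of iron-sulfur clusters, lay by peaks of 882 and 638 bp, and a start of Coro1c, an actin-binding coronin, by one of 627 bp. The widest peak (889 bp) lay in an intron of Coro1c. Without the 3 peaks at starts of other genes, 10 were left at Selplg, 7 at Ccr9 and 5 at Itgae.

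The starts differed in base composition. Over the list, 71.7% of the peaks near coding starts (7696 of 10738) were CpG-rich, here meaning a GC content of 50% or more together with observed CpG dinucleotides at 0.6 or more of the number expected from base composition. Of the 7 own-start peaks, those of Cxcr4 (0.73) and Klf2 (0.71) were CpG-rich, and the others had ratios from 0.13 (Ccr9) and 0.19 (Ccr7) to 0.36 (Cd44). Among the other 59 peaks, 6 were CpG-rich, and all 6 lay at a start of another gene. The CpG-poor own-start peaks were narrow at Ccr9, Selplg and Ccr7 but not at Cd69 (867 bp) or Cd44 (1062 bp).

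**Figure D3:**
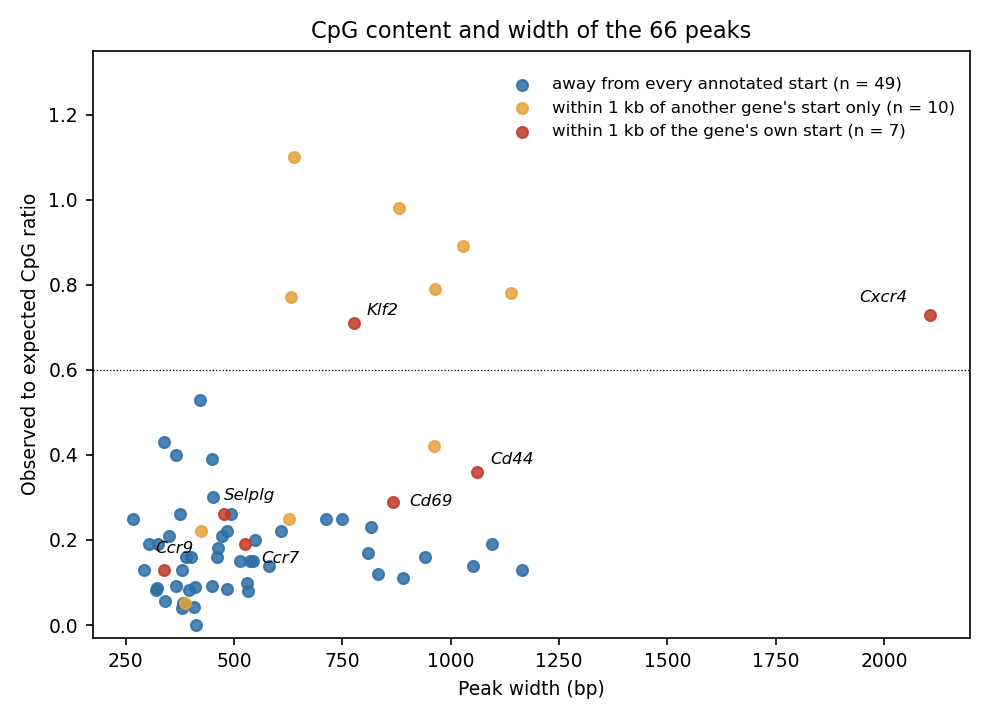
Observed to expected CpG ratio (y axis) against width in bp (x axis) for the 66 peaks, in red for own starts, orange for starts of another gene and blue away from every start. The dotted line marks a ratio of 0.6; of the own-start peaks, Cxcr4 and Klf2 lie above it and the other 5 below.

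The bases before the start show this difference directly. The 200 bases upstream of the 5′-most annotated start (at Ccr9, of a downstream start) are printed for 8 genes. They are read from the mm9 assembly 5′ to 3′ on the strand of the gene. GGGCGG, the core of the GC box bound by SP and KLF proteins, is in capitals on either strand (CCGCCC where it is reversed). Cxcr4 and Klf2 are shown as the CpG-rich starts with a peak, Ccr9 (from its downstream start), Ccr7, Cd69 and Selplg as CpG-poor starts with a peak, and S1pr1 and Itgae as the starts without one.
Cxcr4, chr1:130488871-130489070, minus strand: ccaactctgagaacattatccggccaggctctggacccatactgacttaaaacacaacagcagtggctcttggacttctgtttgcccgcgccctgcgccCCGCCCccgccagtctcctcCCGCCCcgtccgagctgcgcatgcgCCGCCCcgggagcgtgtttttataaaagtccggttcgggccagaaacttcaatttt
Klf2, chr8:74842732-74842931, plus strand: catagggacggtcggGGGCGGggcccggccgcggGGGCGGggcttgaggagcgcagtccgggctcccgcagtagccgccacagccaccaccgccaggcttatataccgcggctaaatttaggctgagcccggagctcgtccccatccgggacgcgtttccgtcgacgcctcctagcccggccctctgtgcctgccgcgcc
Ccr9, chr9:123676129-123676328, plus strand: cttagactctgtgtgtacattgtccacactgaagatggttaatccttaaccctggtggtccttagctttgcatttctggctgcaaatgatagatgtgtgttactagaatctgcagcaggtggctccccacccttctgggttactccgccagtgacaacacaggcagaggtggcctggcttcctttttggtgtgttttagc
Ccr7, chr11:99016392-99016591, minus strand: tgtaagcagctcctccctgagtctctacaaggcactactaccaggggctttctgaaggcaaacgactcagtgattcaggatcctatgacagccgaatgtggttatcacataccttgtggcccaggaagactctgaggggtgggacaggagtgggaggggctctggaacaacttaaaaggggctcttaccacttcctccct
Cd69, chr6:129225388-129225587, minus strand: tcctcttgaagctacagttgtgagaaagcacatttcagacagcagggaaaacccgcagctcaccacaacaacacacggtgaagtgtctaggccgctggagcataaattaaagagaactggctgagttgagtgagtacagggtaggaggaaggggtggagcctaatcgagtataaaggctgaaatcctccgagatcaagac
Selplg, chr5:114280511-114280710, minus strand: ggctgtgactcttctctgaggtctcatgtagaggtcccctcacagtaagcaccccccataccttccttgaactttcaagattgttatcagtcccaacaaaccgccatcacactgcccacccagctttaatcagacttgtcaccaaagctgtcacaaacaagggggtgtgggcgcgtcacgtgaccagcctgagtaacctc
S1pr1, chr3:115417974-115418173, minus strand: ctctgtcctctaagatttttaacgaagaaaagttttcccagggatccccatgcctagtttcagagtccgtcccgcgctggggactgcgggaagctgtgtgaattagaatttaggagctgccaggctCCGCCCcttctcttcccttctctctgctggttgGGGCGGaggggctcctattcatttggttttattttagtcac
Itgae, chr11:72903885-72904084, plus strand: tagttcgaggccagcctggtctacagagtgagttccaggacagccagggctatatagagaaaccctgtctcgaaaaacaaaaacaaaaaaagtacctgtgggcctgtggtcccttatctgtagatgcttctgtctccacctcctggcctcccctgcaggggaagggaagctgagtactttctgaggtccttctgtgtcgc
The core occurred 3 times before Cxcr4 and 2 times before Klf2, and not at all before the downstream Ccr9 start, Ccr7, Cd69, Selplg, Cd44 or Itgae. S1pr1 held it 2 times although no listed peak covered these bases. Its stretch had 7 CpG dinucleotides and a ratio of 0.53, between the 16 of Cxcr4 or the 25 of Klf2 and the 3 of Itgae. The bases before S1pr1 overlap an exon of the annotated gene Gm9889. Taken at the 5′-most start, 4 of the 9 genes held the core (the upstream Ccr9 start held 1), against 38.0% of 22375 coding genes. A match to these letters is a description of the sequence and not a bound site.

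Short sequence words for transcription factors were then counted in the central 200 bp of each peak, on both strands. For RBPJ, the words TGGGAA and TGAGAA were used, and 20 of the 66 peaks (30.3%) held at least 1, against 26.9% of the whole list. The share at the genes was thus near that of the list. TGGGAA alone was in 7 peaks (10.6%, list 15.3%). RUNX words (TGTGGT) were in 20 peaks (30.3%, list 19.9%) and ETS words (GGAAGT) also in 20 (30.3%, list 20.3%). The E-box CAGCTG was in 16 (24.2%, list 21.2%), the GATA word AGATAA in 6 (9.09%, list 6.88%), the TCF and LEF word CTTTGA in 11 (16.7%, list 13.1%), and the FOXO word GTAAAC in 3 (4.55%, list 4.75%). GGGCGG was in 8 (12.1%, list 23.4%) and the KLF word CCACCC in 14 (21.2%, list 23.3%). TGGGAA and GGAAGT share letters, so 1 stretch can count for both, and the reversed form of GGGCGG can likewise overlap CCACCC at its end.

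The same words were set against the list by place. Of the 7 own-start peaks none held GGGCGG in the centre, against 49.2% of the list's peaks near starts, and 4 held CCACCC (57.1% against 26.3%). RUNX words were in 3 of the 7 (42.9% against 9.55%), namely Ccr7, Cd69 and Selplg, and RBPJ words in 2, Ccr9 and Cd69 (28.6% against 20.6%). The GC boxes printed above for Cxcr4 and Klf2 lie outside the central 200 bp and were not counted there. Over whole peaks, GGGCGG was in 3 of the 7 own-start peaks, those of Cxcr4, Klf2 and Cd44 (42.9%), against 76.6% of the list's peaks near starts. All these shares at own starts rest on 7 peaks. Of the 7, 2 were CpG-rich, against 71.7% of the list's peaks near coding starts. The sets thus differ in base composition, and no comparison with list peaks of like composition was made. Of the 49 peaks away from starts, 16 held RBPJ words (32.7% against 30.4%), 4 held TGGGAA (8.16% against 16.4%), 16 RUNX words (32.7% against 25.6%) and 14 ETS words (28.6% against 21.3%).

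Over whole peaks, 41 of the 66 held at least 1 RBPJ word (62.1%, list 62.5%) and 12 held 3 or more (18.2%, list 11.2%). The most, 6 words of which 3 were TGGGAA, were in a peak of 408 bp 39.48 kb upstream of the 5′-most Ccr9 start (chr9:123547876-123548283), in an intron of the amino acid transporter gene Slc6a20a. Of the 6294 peaks in the list within 10% of its width, this was the 1 peak with 6 or more (0.0159%). The peak was singled out as the highest of the 66 after the counts were seen. Its nearest coding start was that of Slc6a20b, not of Ccr9. Within the 300 bases printed here the 6 words are in capitals (TTCCCA and TTCTCA are the reversed forms), and 3 of them stand close together near the 3′ end in a stretch of short repeats.
Ccr9, chr9:123547930-123548229, plus strand: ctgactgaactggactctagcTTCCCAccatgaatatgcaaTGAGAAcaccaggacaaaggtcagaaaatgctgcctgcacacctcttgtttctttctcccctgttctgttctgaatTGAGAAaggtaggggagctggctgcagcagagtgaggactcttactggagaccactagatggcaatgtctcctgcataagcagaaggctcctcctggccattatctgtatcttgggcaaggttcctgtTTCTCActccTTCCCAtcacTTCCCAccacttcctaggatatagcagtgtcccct
The highest count at Cxcr4 was 5 words in the peak of 1165 bp 22.91 kb upstream, and 3.56% of list peaks of like width had as many. At Klf2 the 366 bp peak 27.74 kb upstream held 3, all in the central 200 bp (3.35% of peaks of like width held 3 or more in their full length). These 200 bases are printed with the words in capitals.
Klf2, chr8:74815097-74815296, plus strand: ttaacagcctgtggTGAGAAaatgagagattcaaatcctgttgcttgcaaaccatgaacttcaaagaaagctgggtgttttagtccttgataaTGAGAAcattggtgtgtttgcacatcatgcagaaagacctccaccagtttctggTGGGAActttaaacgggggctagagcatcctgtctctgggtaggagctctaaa
In the other windows the highest counts were 3 at Ccr7, Cd44 and Cd69 and 2 at S1pr1, Itgae and Selplg, counts that 3.06% to 23.5% of list peaks of like width reached. Each peak ranked here, those of Cxcr4 and Klf2 included, was taken for the highest count of its window, a choice that favours low percentages. RBPJ words facing each other at 15 to 17 bp, the spacing of paired Notch sites, were in none of the 66 peaks and in 58 of the list (0.178%).

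The contrast between the 2 genes of immature cells and the 7 others showed overlapping values. Ccr9 and Cxcr4 had 4.91 and 6.72 peaks per 100 kb, both inside the range of the other 7 (3.67 to 11.5). The median was 5.82 for the pair and 5.10 for the 7, a ratio of 1.14. The ratio turned to 0.899 with flanks of 100 kb and to 0.995 when Ccr7, S1pr1 and Klf2 alone stood for the mature genes, so its direction depended on these choices. Both of the pair had an own-start peak, as did 5 of the 7. The pair held 17 peaks with a median width of 460 bp and the 7 held 49 with a median of 483 bp. RBPJ words were in the centre of 6 of the 17 and of 14 of the 49. The pair did not resemble each other at their starts, since Ccr9 had the narrowest and Cxcr4 the widest own-start peak of all.

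Related genes were counted in the same way, and their shares are to be read beside the 46.9% of all coding genes with an own-start peak. Of 9 further chemokine receptor genes, 3 had an own-start peak (33.3%), with Ccr4 (764 bp) and Cxcr6 (424 bp) among them. Cxcr5, the receptor of follicular cells, had 10 peaks in its window but none at its start, and Cxcr3, a receptor of effector cells, had no peak at all. Among 11 genes of egress and of the Klf family, 8 had one (72.7%). S1pr2 (925 bp), Klf3 (1596 bp) and Foxo1 (1025 bp), whose product activates Klf2 in T cells, were among them. The 3 without one were the sphingosine 1-phosphate receptor genes S1pr3, S1pr4 and S1pr5, and S1pr4 nevertheless had 10 peaks in its window. S1pr1 thus shared the lack of a start peak with 3 of the 4 other receptors of its family.

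Of 12 adhesion genes, 10 had an own-start peak (83.3%). Among these were Itgb7, the β partner of the Itgae product (450 bp), and Itgal (915 bp), and the 2 without one were the collagen receptor genes Itga1 and Itga2. Of 9 genes for enzymes that build or modify selectin ligands such as PSGL-1, 6 had one (66.7%). Fut7 (637 bp) was among the 6, and Fut4, Gcnt1 and St3gal6 were not. Of 17 genes of activation and maturation, 10 had one (58.8%). Cd27 (1257 bp) and Cd28 (812 bp), both costimulatory receptors, and Cd24a (1783 bp), which is high on immature thymocytes, were with them. The 7 without one were Il2ra, Ctla4, Pdcd1, Ly6a, Ly6c1, Tnfrsf4 and Cd40lg, and Il2ra, the interleukin-2 receptor α chain, had 12 peaks in its window all the same. Over these 5 lists 37 of 58 genes had an own-start peak (63.8%), against 46.9% of all coding genes.

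Of 8 genes for ligands that other cells present, 1 had an own-start peak (12.5%, all coding genes 46.9%), Ccl25 (1027 bp), the ligand of CCR9. Cxcl12, the ligand of CXCR4, had no peak in its window, the only gene of the 8 without any. Cdh1, the gene of E-cadherin, had the most, 12, with none at its start. The median of the 8 was 3.50 peaks per window, against 3 over all coding genes. The cell type of the libraries was checked in the same list. All 8 T-lineage markers, such as Cd3e and Ptcra, had an own-start peak, with a median of 11.0 peaks per window. Of 12 markers of B-lineage, myeloid and stromal cells 2 had one (16.7%), namely Spi1 (862 bp) and Col1a1 (579 bp), and none of the 4 B-lineage markers did.

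**Figure D4:**
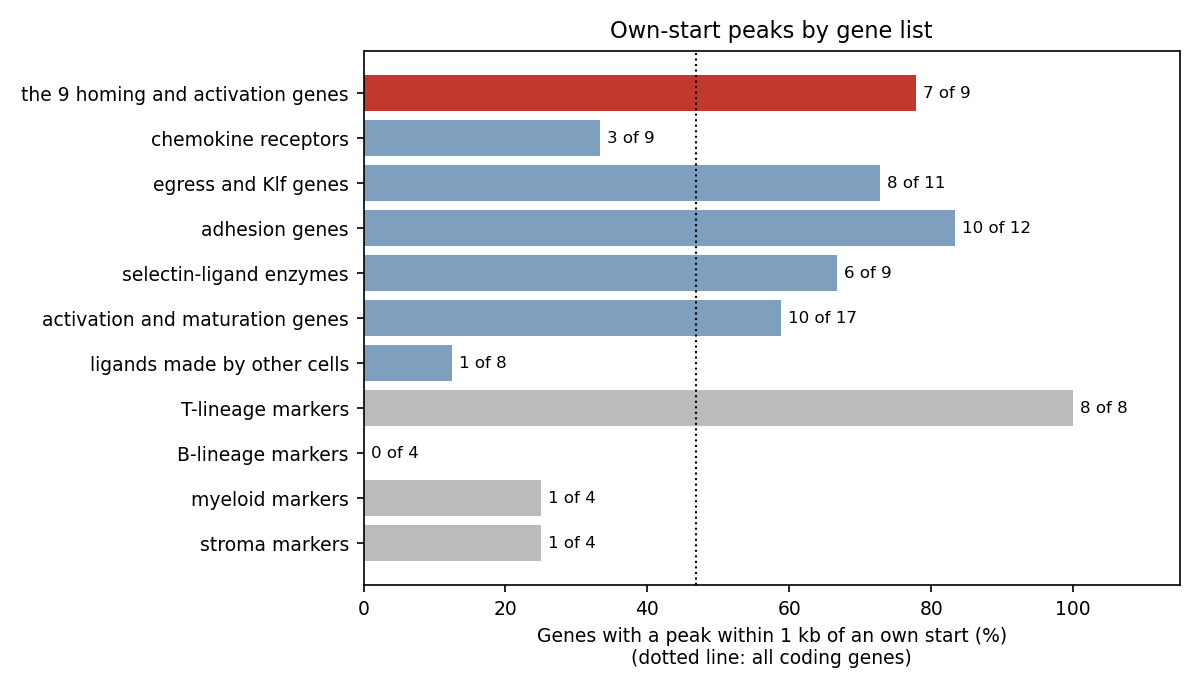
Share of genes with a peak within 1 kb of an own start, in percent, for the 9 genes, the 6 lists of related genes and the marker lists, with the number of genes beside each bar and a dotted line at the 46.9% of all coding genes. Adhesion genes (83.3%) stand high and ligands presented by other cells (12.5%) low.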

How the data were processed

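ATAC-Seq was performed on 6 Beko libraries (3 GSI, 3 DMSO). According to the methods, the authors trimmed reads, aligned them to mm9 with HISAT2 2.2.1 (at most 1 alignment each), discarded duplicates using Picard, and ran MACS2 without input on each library. Blacklisted regions were taken out, and a region had to recur in 3 of the 6 libraries. A shift of reads for transposase insertion is not given in the sources used here. Peak edges, and thus widths, depend on these steps. The deposited list holds coordinates only, and its deposited score is 0 in each of 32527 lines. No column gave values per sample, so the planned test of GSI against DMSO was not made.

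Peaks were assigned with Python 3.11.15 and numpy 2.4.6 to GENCODE vM1 genes on the same build, with coordinates counted from 1. Motif words were searched on both strands. The overlap code was tested on simulated data. Named were all 9 genes, own-start peaks, the widest peak and the peak with most RBPJ words of each window. Other genes whose start in a window had a peak were named too. Of each list, genes with no own-start peak or with most peaks were to be named, but only some of these were. A few further list genes were named after their values were seen. The genes and lists were chosen with earlier results of these data known. Some genes of the lists are counted but their values are not reported here.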

Additional observations from a re-analysis of the deposited data

How the results depend on the processing

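The number of genes with an own-start peak was 7 under each other distance or transcript choice and 5 with peaks of at least 500 bp. The 66 peaks became 32 with 10 kb flanks, 31 with peaks of at least 500 bp and 41 when only peaks nearest to the gene's own coding start were kept, and between 56 and 99 otherwise. The 39444 bp covered became 19678 bp with 10 kb flanks, 61716 bp with 100 kb flanks and 25667 bp with peaks of at least 500 bp. The density ratio of 1.14 was that of Ccr9 and Cxcr4 over the other 7 genes. It was reversed with 100 kb flanks (0.899) and with Ccr7, S1pr1 and Klf2 in place of the 7 (0.995). It lay between 1.09 and 1.38 under the others, including a shorter Ccr9 window chosen after seeing the data (1.34). Of 36 counts for single genes, 20 moved by over 1.5 times, and S1pr1 had 0 peaks with 10 kb flanks. These changes follow from the length searched or the peaks kept. No paired analysis was possible because per-library values were not part of the file analysed, and for the same reason no replicate could be left out. Depth could not be judged, so a missing peak may be a site below the threshold of the peak caller.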
